A study of Rattus norvegicus with 12 samples.

Results

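The genes described here encode enzymes that attach ubiquitin to proteins or remove it: 72 genes of ubiquitin ligases with 116 probe sets and 43 genes of ubiquitin-specific proteases with 83. The rule that picked them uses names only, but it was set with earlier results of these arrays known. It takes every probe set whose annotation gives a single symbol that is Usp or Rnf followed by a digit, or is Cbl, Cblb, Nedd4 or Nedd4l. That makes 199 of 31042 probe sets and 115 of 14217 named genes. Expression was measured in the basolateral amygdala of male Long-Evans rats, 2 to 3 months old and 225 to 250 g, housed singly with free chow and water. The sucrose group was offered up to 4 mL of a 30% sucrose drink 2 times a day for 14 days, and the control group was offered water on the same schedule. Tissue was taken on the morning of day 15, and each array holds RNA from both sides of 2 rats of a group, so that 6 sucrose and 6 control pools were compared and n counts pools, not animals.

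Ubiquitin is passed from an activating enzyme (E1) to a conjugating enzyme (E2) and then to a substrate with the help of a ligase (E3). RING ligases, such as Cbl and many of the Rnf proteins, bring E2 and substrate together, while HECT ligases, such as Nedd4 and Nedd4l, first take the ubiquitin onto a cysteine of their own. Ubiquitin-specific proteases cut ubiquitin off again, and in neurons this balance sets how long synaptic receptors and scaffolds last. Not every symbol taken by the rule is such an enzyme. Usp6nl, for example, encodes a protein that activates the GTPase function of Rab proteins and is no protease. The classes follow the names, and the enzyme activity of the other members was not checked.

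Each deposited value is the signal of an array over the mean of the 6 control arrays, and all values below are log2 of that ratio, so that 0 is the control mean. Such ratios keep no absolute signal, so no gene could be ranked by level, dim probe sets could not be recognised, and the tissue could not be checked for the presence or absence of its defining markers. Differences are sucrose minus control with the standard error (SE) of limma, which was fitted over all 31042 probe sets, and adjusted p-values are Benjamini-Hochberg values over that whole table. In a dissected tissue, fewer cells of a type and less RNA per cell cannot be told apart. Array medians ran from a ratio of 0.989 to 1.002. In sucrose array 1 the 18 spike-in probe sets averaged 0.18 (-0.12 to 0.09 in the others) and the choroid plexus and ependyma markers 1.49 (-0.27 to 0.36 in the others), while sucrose array 5 had the top mean of oligodendrocyte markers (0.39, against -0.14 to 0.16).

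No ligase or protease passed the test after adjustment, while the share of members with a small unadjusted p and a higher value in sucrose was above that of all probe sets. At an adjusted p of 0.05 limma called 0 of the 199 member probe sets, as it did for 0 of all 31042, a background of 0%. With p under 0.05 before adjustment, 25 members (12.6%) stood higher after sucrose and 4 (2.01%) lower, while the background was 4.50% and 3.07%. Cbl, Usp7, Nedd4 and Rnf149 led the higher ones. The 25 higher probe sets belonged to 9 ligase genes and 11 protease genes, and their differences ran from 0.07 to 0.43 with adjusted p-values in limma from 0.231 to 0.658. Groups that did not overlap occurred in 4 members, all higher in sucrose, against a background of 0.296% higher and 0.129% lower. Of the 25 higher probe sets, 15 had their highest value of all 12 arrays in sucrose array 1. Over all 199 members that array was the highest for 31 and the lowest for 32, the most of any array in both directions. Without that array the count of higher members was 19 of 199 (9.55%, background 3.70%). It was likewise 19 without control array 1 (background 3.92%). Sucrose array 1 also had the lowest 3′ minus 5′ difference of the RNA integrity probe sets (-0.14, against -0.04 to 0.08 in the others). Its marker means were the highest for excitatory neurons (0.17) and astrocytes (0.19) and the lowest for striatal and central amygdala neurons (-0.29). With the 3′ minus 5′ difference as a covariate, chosen after seeing the data, 23 members were higher (11.6%, background 4.54%), and the part of these differences in the counts was not tested otherwise.

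**Figure D1:**
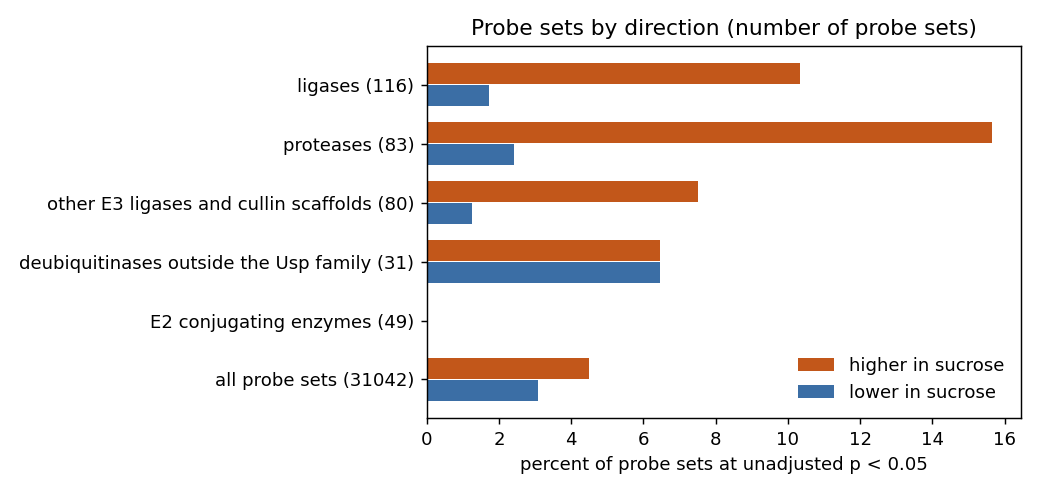
Percent of probe sets at an unadjusted limma p under 0.05 (x axis) in each list (y axis, number of probe sets in brackets), higher in sucrose in orange and lower in blue. The bars for higher probe sets reach 10.3% for ligases and 15.7% for proteases, against 4.50% for all probe sets.

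Among the ligases, Rnf149 and Cbl had the lowest p. Rnf149 encodes a membrane-bound RING ligase, and Cbl a RING ligase that marks activated receptor tyrosine kinases for removal. The Rnf149 probe set 1375543_at had a lowest, median and highest value of 0.21, 0.31 and 0.54 in sucrose arrays, against -0.12, -0.02 and 0.11 in control arrays. All 6 sucrose arrays lay above all 6 control arrays. The difference was 0.35 ± 0.06 (SE, n = 6 each; adjusted p = 0.231 in limma), a 1.27-fold ratio. The second probe set of Rnf149, 1389525_at, went the other way (-0.08 ± 0.05), with -0.21 to 0.02 in sucrose and -0.13 to 0.11 in control arrays. The mean of both gave 0.13, so the sign and the size of the Rnf149 value rest on which probe set is read.

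For Cbl, all 4 probe sets were higher, by 0.21 ± 0.04, 0.12 ± 0.03, 0.14 ± 0.07 and 0.01 ± 0.05 (SE, n = 6 each). At 1379603_at the lowest, median and highest values were 0.10, 0.23 and 0.30 in sucrose arrays, against -0.06, 0.00 and 0.07 in control arrays. At 1375732_at they were 0.04, 0.13 and 0.18 in sucrose arrays, against -0.06, 0.02 and 0.04 in control arrays. The groups did not overlap at either of these probe sets and did at the other 2, and the adjusted p-values in limma were 0.231 and 0.422. Cblb, the closest relative of Cbl in the set, has a single probe set, at 0.01, 0.06 and 0.45 in sucrose arrays, against -0.16, -0.02 and 0.21 in control arrays. Its groups overlapped, and the difference was 0.14 ± 0.08 (adjusted p = 0.738 in limma).

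Nedd4 encodes a HECT ligase that acts on membrane proteins, among them the AMPA receptor subunit GluA1. Its 6 probe sets split evenly in direction, with 3 higher and 3 lower. The 3 higher ones differed by 0.37 ± 0.11, 0.28 ± 0.07 and 0.12 ± 0.04 (SE, n = 6 each), with adjusted p-values in limma of 0.425, 0.402 and 0.509, and the 3 lower ones by -0.04 ± 0.03, -0.04 ± 0.05 and 0.00 ± 0.03. At 1384326_at the values were 0.75, 0.54 and 0.54 in sucrose arrays 1, 2 and 3 and 0.08, 0.17 and 0.12 in sucrose arrays 4, 5 and 6, against -0.11 to 0.12 in control arrays. Sucrose arrays 1 to 3 thus stood well above the controls, and sucrose arrays 4 and 6 lay within their range. At 1395157_at the sucrose arrays ran from 0.10 to 0.54 with a median of 0.22, against -0.20 to 0.12 with a median of 0.03 in control arrays, and 5 of the 6 sucrose arrays lay above every control. The mean over the 6 probe sets was 0.11. Nedd4l, whose product limits the epithelial sodium channel at the cell surface, had 1 probe set, at -0.18, 0.01 and 0.09 in sucrose arrays, against -0.03, -0.01 and 0.06 in control arrays, a difference of -0.01 ± 0.04 whose sign depended on single arrays.

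**Figure D2:**
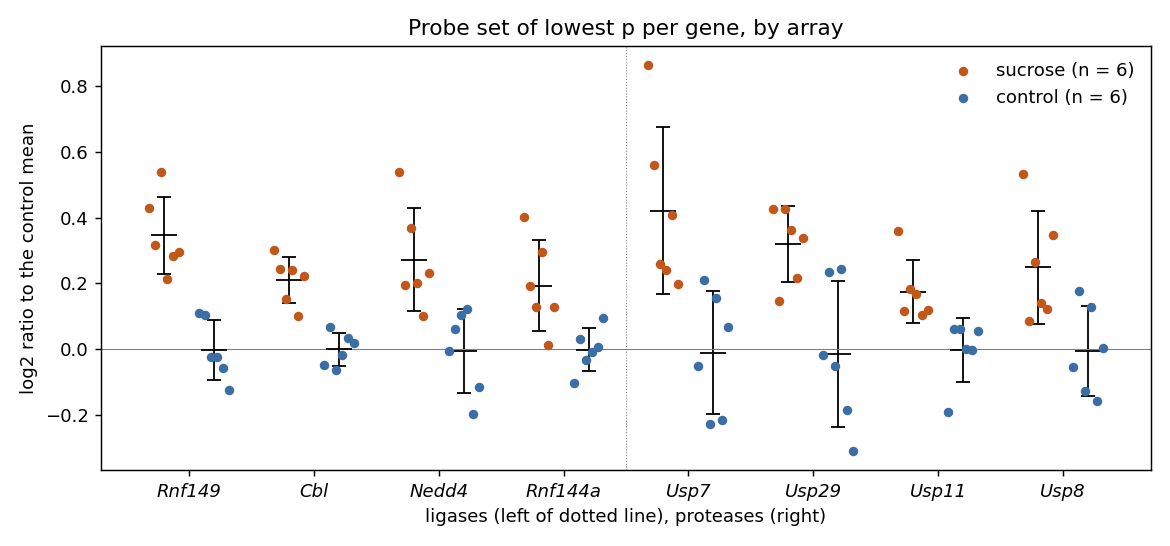
Log2 ratio to the control mean (y axis) of each array for the probe set of lowest p of 4 ligase and 4 protease genes (x axis). Points are arrays, sucrose in orange and control in blue, and bars are mean ± SD (n = 6 each). The groups are apart for Rnf149, Cbl and Usp11 and overlap for the others.

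Sequences around the annotated starts of leading genes are shown because these genes head the list and the sequences differ in CpG dinucleotides. Whether these annotated starts are the ones used in this tissue was not examined. RefSeq (build GRCr8) gives a window of 250 bases before to 50 bases after the start for 95 of the 115 member genes, and Usp7 is not among them. Capitals mark the GC box GGGCGG, searched on both strands. The E-box CACGTG and the cAMP response element TGACGTCA were searched in the same way and are in none of the windows printed. The windows are those of Cbl (chr8:53468018-53468317, minus strand), Rnf149 (chr9:49349802-49350101, minus strand), Nedd4 (chr8:82264545-82264844, plus strand) and Usp29 (chr1:75959847-75960146, minus strand).
Cbl: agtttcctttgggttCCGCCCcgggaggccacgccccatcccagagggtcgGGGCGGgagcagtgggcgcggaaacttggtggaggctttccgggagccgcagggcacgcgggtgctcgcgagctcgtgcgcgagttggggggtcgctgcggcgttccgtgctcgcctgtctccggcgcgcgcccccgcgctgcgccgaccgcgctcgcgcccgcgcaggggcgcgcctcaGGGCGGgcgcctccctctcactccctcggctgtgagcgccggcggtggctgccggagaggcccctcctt
Rnf149: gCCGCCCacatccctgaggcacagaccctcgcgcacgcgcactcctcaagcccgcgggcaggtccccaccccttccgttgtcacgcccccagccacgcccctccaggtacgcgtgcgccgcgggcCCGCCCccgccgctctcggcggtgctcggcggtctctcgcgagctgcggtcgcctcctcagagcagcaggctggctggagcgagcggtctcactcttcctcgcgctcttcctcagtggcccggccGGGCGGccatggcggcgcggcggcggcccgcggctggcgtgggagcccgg
Nedd4: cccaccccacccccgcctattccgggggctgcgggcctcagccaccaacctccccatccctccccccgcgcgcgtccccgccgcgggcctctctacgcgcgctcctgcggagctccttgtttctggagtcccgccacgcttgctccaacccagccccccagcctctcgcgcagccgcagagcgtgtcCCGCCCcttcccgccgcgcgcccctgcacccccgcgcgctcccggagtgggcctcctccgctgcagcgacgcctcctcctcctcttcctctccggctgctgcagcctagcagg
Usp29: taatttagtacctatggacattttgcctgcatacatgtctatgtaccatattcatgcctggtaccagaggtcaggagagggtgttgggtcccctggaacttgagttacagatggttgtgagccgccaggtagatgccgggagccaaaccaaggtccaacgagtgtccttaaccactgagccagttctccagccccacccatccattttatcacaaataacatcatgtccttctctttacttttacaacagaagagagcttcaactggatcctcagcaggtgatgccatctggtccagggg
The windows of Cbl, Rnf149 and Nedd4 held 44, 42 and 33 CpG dinucleotides and 3, 3 and 1 GC boxes, while that of Usp29 held 3 CpG and 0 GC boxes. A second annotated start of Rnf149 had 8 CpG and 0 GC boxes. Over all 27457 genes with a window 36% held a GC box, compared with 65.6% of the 61 ligase genes and 73.5% of the 34 protease genes. That wider set is not limited to the genes of the array, and a comparison with those alone was not made. An E-box was in 3.28% of ligase and 11.8% of protease genes, against 7.08% of all genes. The cAMP response element was in 3 ligase genes (4.92%) and 0 protease genes (0%), against 2.00% of all genes. A match is a description of letters and not of binding.

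Rnf144a, a ligase of the RING-between-RING kind, had 0.01, 0.16 and 0.40 as the lowest, median and highest value in sucrose arrays, against -0.10, 0.00 and 0.10 in control arrays, and the groups overlapped (0.19 ± 0.06, adjusted p = 0.441 in limma). Of its 3 probe sets 2 were higher and 1 lower. Rnf103, a ligase of the endoplasmic reticulum membrane, differed by 0.07 ± 0.03 and Rnf13, a ligase of endosomes and lysosomes, by 0.10 ± 0.04. Rnf150 differed by 0.12 ± 0.05 and Rnf19b by 0.09 ± 0.04, and all of these had an adjusted p above 0.6 in limma. The second probe set differed by 0.05 ± 0.09 for Rnf13 and by 0.003 for Rnf150. At the Rnf150 probe set of lowest p every sucrose array lay below the highest control (0.23). Of the 104 probe sets of Rnf genes, 7 (6.73%) were higher and 2 (1.92%) lower before adjustment, against a background of 4.50% and 3.07%. The 12 probe sets of Cbl, Cblb, Nedd4 and Nedd4l had 5 higher (41.7%) and 0 lower, against the same background. Those 5 were 2 of Cbl and 3 of Nedd4, and probe sets of a gene are not independent of each other.

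In the other direction the 8 ligase genes of lowest p lay between -0.10 and -0.05 with adjusted p-values in limma from 0.595 to 0.776. They were Rnf207, Rnf44, Rnf223, Rnf114, Rnf220, Rnf10, Rnf123 and Rnf113a2. Rnf123, which encodes the ligase subunit that acts on the cell cycle inhibitor p27, was lower at all 3 of its probe sets, as was Rnf114 at 3 of 3. Rnf207 was lower at 4 of 5, and 1375931_at ran from -0.17 to -0.06 in sucrose arrays, against -0.09 to 0.16 in control arrays. These ranges overlapped, and the difference was -0.10 ± 0.04. The lowest difference of all members was that of Rnf40 (-0.21 ± 0.15), whose product works with that of Rnf20 to put a single ubiquitin on histone H2B. Its values ran from -0.43 to -0.01 in sucrose and from -0.46 to 0.45 in control arrays, a spread that covers the difference. Rnf20 itself differed by 0.19 ± 0.10 and 0.03 ± 0.03 at its 2 probe sets.

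Among the proteases Usp7, which deubiquitinates Mdm2 and p53, had the largest difference of all members. At 1385527_at the sucrose arrays were at 0.86, 0.56, 0.26, 0.24, 0.41 and 0.20 in arrays 1 to 6, against -0.05, 0.21, -0.23, 0.16, -0.21 and 0.07 in control arrays 1 to 6. Only sucrose array 6 lay below the highest control, and sucrose array 1 was far above the rest of its group. The difference was 0.43 ± 0.11 (SE, n = 6 each; adjusted p = 0.384 in limma), and 0.34 without sucrose array 1. The other 3 probe sets of Usp7 differed by 0.12 ± 0.05, 0.11 ± 0.06 and -0.09 ± 0.05, and the mean over all 4 was 0.14.

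Usp29, an imprinted gene in the mouse, has 1 probe set. Its lowest, median and highest values were 0.15, 0.35 and 0.43 in sucrose arrays, against -0.31, -0.04 and 0.24 in control arrays. The groups overlapped through sucrose arrays 2 and 5 and control arrays 2 and 4, and the difference was 0.33 ± 0.09 (adjusted p = 0.402 in limma). At 1391938_at of Usp11 the 6 sucrose arrays, from 0.10 to 0.36, lay above all control arrays, from -0.19 to 0.06, with a difference of 0.18 ± 0.05 (adjusted p = 0.436 in limma). The second probe set of Usp11 differed by 0.00 ± 0.03.

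Usp8 encodes a protease of endosomes that decides whether receptors are recycled or degraded. All 3 of its probe sets were higher, by 0.25 ± 0.08, 0.17 ± 0.06 and 0.09 ± 0.06 (SE, n = 6 each), with adjusted p-values in limma of 0.470, 0.556 and 0.811. At 1373358_at the values ran from 0.09 to 0.53 in sucrose arrays, against -0.16 to 0.18 in control arrays, and the groups overlapped. Usp30, a protease of the outer mitochondrial membrane that opposes parkin, was higher at both probe sets (0.09 ± 0.03 and 0.10 ± 0.05), as was Usp1, which acts in DNA repair (0.13 ± 0.04 and 0.07 ± 0.03). Usp31 differed by 0.11 ± 0.04 at its only probe set. Usp32 differed by 0.20 ± 0.06 at one probe set and by -0.01 ± 0.04 at another. Adjusted p-values of these 4 genes were 0.470 or higher.

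Lower values among proteases were small as well. The 8 genes of lowest p lay between -0.15 and -0.06 with adjusted p-values in limma from 0.649 to 0.771. They were Usp40, Usp19, Usp42, Usp25, Usp49, Usp5, Usp33 and Usp18. Usp40 ran from -0.30 to 0.03 in sucrose arrays and from -0.25 to 0.21 in control arrays (-0.15 ± 0.07), and its 4 probe sets split with 2 in each direction. Usp19, a protease anchored in the endoplasmic reticulum, was lower at both probe sets (-0.08 ± 0.04 and -0.03 ± 0.03). Usp5, which takes free ubiquitin chains apart, differed by -0.06 ± 0.03, and Usp18, which removes the ubiquitin-like protein ISG15, by -0.15 ± 0.09. For Usp42 the probe set of lowest p was lower (-0.06 ± 0.03), while its other 3 probe sets were higher, by up to 0.17.

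**Figure D3:**
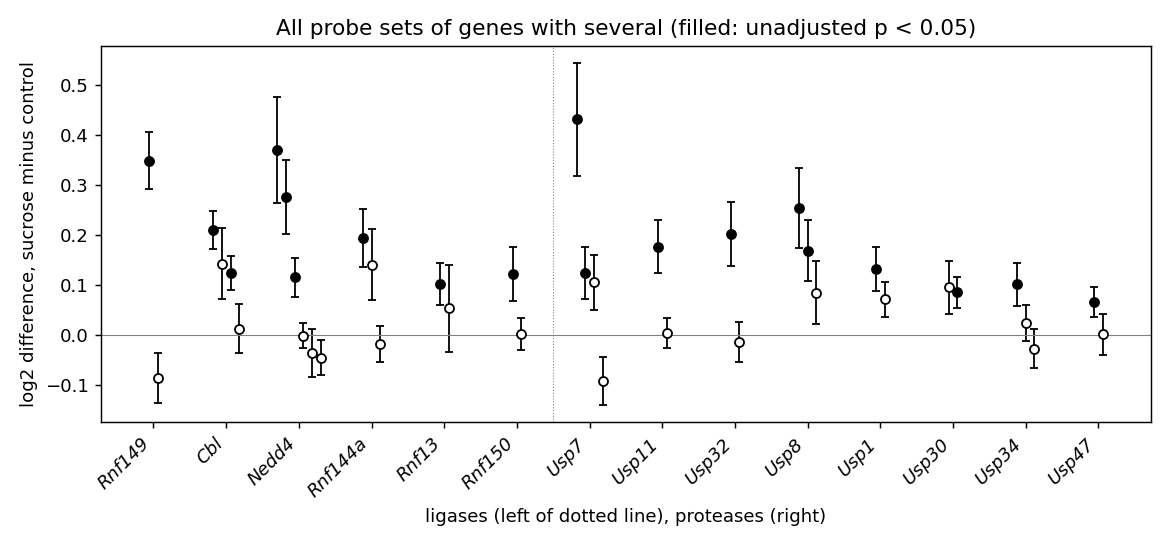
Log2 difference, sucrose minus control (y axis), of every probe set of the 14 genes with several probe sets of which at least 1 was higher at an unadjusted p under 0.05 (x axis). Points are probe sets with their SE (n = 6 arrays per group), filled where the unadjusted p was under 0.05. Cbl and Usp8 have no probe set below 0, while Rnf149, Nedd4 and Usp7 have probe sets on both sides.

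Disagreement between the probe sets of a gene was common. Of the 52 genes with several probe sets 22 had them in both directions, 19 had all higher and 11 had all lower. Among the 14 genes with a higher probe set at an unadjusted p under 0.05, only Cbl, Nedd4, Usp7 and Usp8 had more than 1 such probe set, and 6 of the 14 had a probe set in the other direction. Probe sets of a gene can read different ends or variants of its transcripts, and which of them each reads was not examined. Members with near-identical copies, such as Rnf138 and Rnf138l1 or Rnf113a1 and Rnf113a2, may share signal.

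Of the 28 well-studied genes listed for description 26 were measured, and 6 of them had a probe set of lowest p with an unadjusted p under 0.05. Those with large differences, among them Usp7, Nedd4, Usp8 and Cbl, are given above, and the rest of the list follows. Usp14, the protease bound to the proteasome that is mutated in ataxic mice, differed by -0.03 ± 0.03, and Usp9x by 0.02 to 0.05 over 4 probe sets. Usp46, which alters behavioural despair in mice, differed by 0.02 to 0.05 over 3, and Usp2, a protease with circadian expression, by -0.04 and -0.03. Usp4 (0.08 ± 0.06) and Usp15 (0.08 ± 0.04) differed little. Rnf167, which ubiquitinates AMPA receptors, differed by -0.01 ± 0.03, the brain-enriched Rnf112 by -0.02 ± 0.04 and Rnf41, which acts on the receptor ErbB3, by -0.06 to -0.03. Rnf2, a subunit of Polycomb complex 1, the SUMO-targeted ligase Rnf4, the DNA damage ligase Rnf8, Rnf25 and Rnf128 differed by 0.06 or less at the probe set of lowest p. Usp22 and Rnf11 were not analysed here. The 65 member genes not covered by the rule for named genes had 93 probe sets, 56 higher and 37 lower, with differences from -0.05 to 0.23. Of those 93, 4 were higher with an unadjusted p under 0.05 (0 lower), namely Usp12, Usp34, Usp47 and Rnf146, which are named here after their values were seen. That is 4.30% of the 93, against a background of 4.50%, in a remainder from which the rule had already taken the genes of lowest p. The highest difference among them was that of Rnf6, also named after its value was seen, at 0.23 ± 0.20, with -0.38 to 0.52 in sucrose arrays and -0.71 to 0.33 in control arrays.

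Ligases and proteases were compared by their counts and medians. The ligases had 12 of 116 probe sets higher (10.3%) and 2 lower (1.72%) at an unadjusted p under 0.05. For the proteases it was 13 of 83 higher (15.7%) and 2 lower (2.41%), both to be read against the background of 4.50% and 3.07%. Without the 3 probe sets of Usp6nl the proteases had 13 of 80 higher, with a median difference of 0.02 as before. Regardless of p, 51.7% of ligase and 63.9% of protease probe sets were above 0, compared with 45.7% of all probe sets. The median difference was 0.00 for ligases and 0.02 for proteases, against -0.01 for all probe sets. With 1 probe set per gene, that of highest variance, 5 of 72 ligase genes (6.94%) and 9 of 43 protease genes (20.9%) were higher, where the background was 5.08%.

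Averaged over genes, the ligases stood at 0.010 ± 0.009 in sucrose arrays and -0.003 ± 0.010 in control arrays (SD, n = 6 each). The proteases stood at 0.029 ± 0.014 in sucrose arrays and -0.003 ± 0.013 in control arrays. The lowest, median and highest protease means were 0.010, 0.026 and 0.051 in sucrose arrays, against -0.018, -0.001 and 0.014 in control arrays, so that only sucrose array 6 lay within the control range. Ligases minus proteases was -0.039 to -0.001 in sucrose arrays, against -0.018 to 0.028 in control arrays, and the groups overlapped. The difference between the groups was -0.018, close to the SD of 0.016 in sucrose and 0.015 in control arrays. The members were chosen with results of these arrays known, so no p is given for these means, and a difference between ligases and proteases was not tested.

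**Figure D4:**
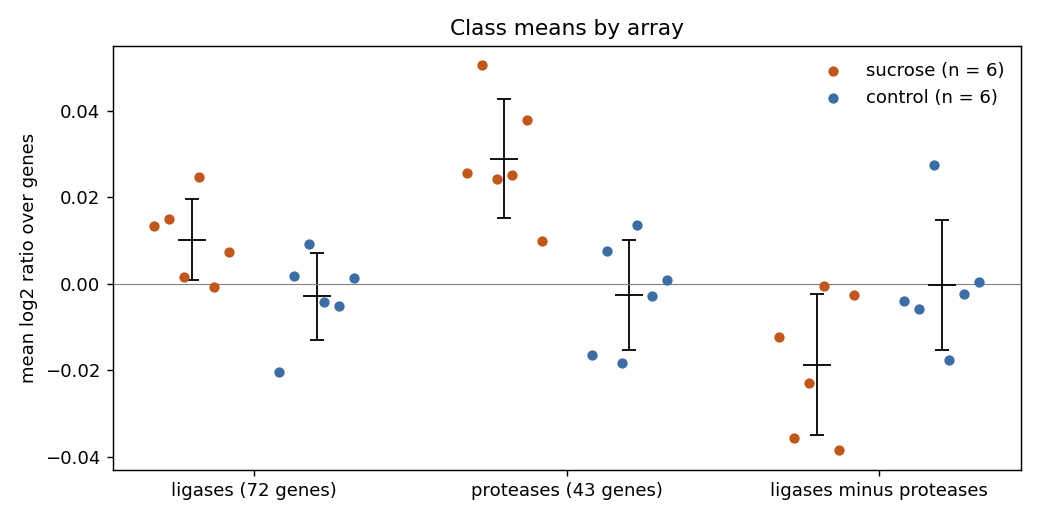
Mean log2 ratio over the 72 ligase genes, over the 43 protease genes, and the first minus the second (y axis) for each array, sucrose in orange and control in blue, with mean ± SD (n = 6 each). Protease means reach 0.051 in sucrose and 0.014 in control arrays, and the ligase minus protease values of the groups overlap.

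The rest of the ubiquitin pathway gave the following counts, over lists of which 2 of 6 ubiquitin and E1 genes, 26 of 30 E2 genes, 40 of 49 other ligase and cullin symbols and 21 of 23 other deubiquitinase genes were matched. In limma 0 of these probe sets passed an adjusted p of 0.05. The 80 probe sets of other ligases and cullins had 6 higher (7.50%) and 1 lower (1.25%) at an unadjusted p under 0.05, against a background of 4.50% and 3.07%, with a median of -0.01. The higher ones were Huwe1 (0.13 ± 0.04), Trim2 (0.13 ± 0.04), Mycbp2 (0.11 ± 0.04), Xiap (0.23 ± 0.09), Mdm4 (0.10 ± 0.04) and Ube3a (0.14 ± 0.06), the ligase lost in Angelman syndrome, and the lower one was Wwp1 (-0.11 ± 0.05). Huwe1, a giant HECT ligase, ran from 0.06 to 0.19 in sucrose arrays, against -0.11 to 0.06 in control arrays, and its groups did not overlap. Its other 2 probe sets differed by 0.00 and -0.01, and of the other 3 of Ube3a 1 was higher (0.13) and 2 lower (-0.10 and -0.09). Other probe sets of Mycbp2 differed by -0.07 and 0.01, and those of Trim2 by 0.015 and 0.017. Xiap (0.11), Mdm4 (0.12) and Wwp1 (-0.06) kept their direction at another probe set. The 31 probe sets of deubiquitinases outside the Usp family had 2 higher and 2 lower, which is 6.45% each way against that background. The higher ones were Cyld (0.18 ± 0.06) and Otud7b (0.20 ± 0.09), and the lower ones Otud1 (-0.10 ± 0.04) and Otub2 (-0.11 ± 0.04). Other probe sets differed by 0.03 for Cyld, 0.03 and -0.01 for Otud7b, and 0.01 for Otub2. The 49 probe sets of E2 enzymes had 0 at an unadjusted p under 0.05 in either direction in limma, with a median of 0.00. The 5 probe sets of E1 enzymes had 1 higher (Uba6, 0.07 ± 0.03) and 0 lower. Uba6 was higher at 4 of 4 probe sets (0.05 to 0.17) and Uba1 differed by -0.01 at its only probe set.

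In the authors' deposited table of 145 probe sets 5 are members, which is 3.45% of the table and 2.51% of the members, while members are 0.641% of all probe sets. In the authors' deposited table these are Usp7 (a mean ratio of 1.36 in sucrose arrays, p = 0.00831), Nedd4 at 2 probe sets (1.31 and 1.21, p = 0.0206 and p = 0.00753), Rnf149 (1.27, p = 0.000225) and Usp29 (1.25, p = 0.0123), with p-values of an unnamed test that are not adjusted. All 5 are higher in sucrose. Without these 5, 20 of 194 member probe sets were higher (10.3%) and 4 lower (2.06%) at an unadjusted p under 0.05 in limma. The background of 4.50% and 3.07% is over all probe sets, from which the 145 of the deposited table were not removed. The table was selected on these same arrays and is no independent evidence of direction.

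Markers of cell types were set beside these values. Excitatory neuron markers had a mean of -0.02 to 0.17 in sucrose arrays, against -0.06 to 0.05 in control arrays (5 of 6 genes measured), astrocyte markers 0.00 to 0.19 against -0.12 to 0.04 (6 of 6), oligodendrocyte markers -0.14 to 0.39 against -0.09 to 0.07 (7 of 8), and choroid plexus and ependyma markers -0.27 to 1.49 against -0.22 to 0.26 (5 of 6). The means of GABAergic neuron markers (6 of 6) ran from -0.03 to 0.02 in sucrose and from -0.06 to 0.06 in control arrays, those of striatal and central amygdala neurons (8 of 9) from -0.29 to 0.14 and from -0.11 to 0.12, those of microglia (8 of 8) from -0.06 to 0.00 and from -0.10 to 0.05, and those of endothelium (5 of 6) from -0.05 to 0.04 and from -0.06 to 0.05. With the oligodendrocyte mean as a covariate, chosen after seeing the data, 20 members were higher at an unadjusted p under 0.05 (10.1%, background 4.26%). With sucrose arrays 1 and 5 both left out, likewise chosen after seeing the data, it was 22 (11.1%, background 3.23%). The part of other cell types in these values was not tested.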

How the data were processed

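RNA of 12 pools was hybridised to Affymetrix rat arrays, as their control probe set names show. The deposited values are linear ratios, made with RMA per the submitters' processing notes (no version given), and for every probe set the control arrays average 1 within 2.02e-07, so the deposited ratio is to the control mean. The authors also deposited a table of 145 probe sets with an unadjusted p-value and mean ratios, and with standard errors and deviations that were not used, per the file headers. The depth of an array has no count, and precision is limited by the number of arrays.

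Ratios were log2 transformed. Tests did not use 57 control probe sets. Symbols came from the platform annotation (20826 probe sets with 1 symbol, 436 with several, 9780 with none), and all 115 member genes matched the RefSeq gene table of GRCr8 by identifier with 0 changed symbols. Groups were compared with limma 3.58.1 in R 4.3.3 (lmFit, eBayes without a variance trend, group as the only term, two-sided), adjusted over 31042 probe sets. Tables and figures were made in Python 3.11.15. The fit was tested on simulated data. The members, lists and tests were chosen with earlier results of these data known. Genes named are, for ligases and for proteases, the 8 of lowest p in each direction, members of the deposited table, Cbl, Cblb, Nedd4 and Nedd4l, and a set of 28 well-studied genes, with exceptions stated where they occur. Replicate numbers of the labels were not taken as pairs in the main fit. Alternatives were other scalings, variance priors, weights, covariates, probe set rules and the leaving out of single arrays.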

Additional observations from a re-analysis of the deposited data

Results flagged for a closer look

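Dixon's criterion at the 95% level compares the gap between an extreme array and its nearest neighbour with the whole range of the group, and for 6 arrays the share must pass 0.625. It was applied to both groups for the named genes and for the ligase mean, the protease mean and their difference. Among the 106 sets of 6 values so tested there were 7 that passed, and 5.3 would be met by chance (1 in 20). At its probe set of lowest p, Usp11 was at 0.36 in sucrose array 1, against 0.10 to 0.18 in the other sucrose arrays, and at -0.19 in control array 1, against 0.00 to 0.06 in the other controls. Rnf20 was at 0.65 in sucrose array 1, against -0.01 to 0.16, and at -0.32 in control array 5, against -0.02 to 0.16. Rnf150 was at 0.21 in sucrose array 4, against 0.08 to 0.12, and Rnf223 at -0.24 in the same array, against -0.11 to -0.03. Rnf41 was at -0.17 in sucrose array 6, against -0.06 to 0.00.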

How the results depend on the processing

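No member passed an adjusted p of 0.05 in limma under any alternative run, while 25 were higher at an unadjusted p under 0.05 as reported. With all 199 probe sets that count ran from 20 to 26 over the other settings, and leaving out 1 array at a time gave 19 to 25 for all members, 8 to 12 for ligases and 11 to 14 for proteases. It was 14 with 1 probe set per gene, fewer features being tested. Ligases higher were 5 with 1 probe set per gene and 7 with the mean of probe sets. The count of lower members, 4 as reported, was 1 with quantile normalization, 2 with a variance trend, 2 with array weights, 0 with a spike-in covariate, 2 without the probe sets of lowest variance, 2 with 1 probe set per gene, 1 with the mean per gene, 2 with the oligodendrocyte covariate, 0 without sucrose arrays 1 and 5, and 1 to 4 leaving out single arrays.

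The median of ligases was 0.0075 without the probe sets of lowest variance, 0.0086 with 1 probe set per gene, 0.0064 with the oligodendrocyte covariate, 0.0075 without sucrose arrays 1 and 5, and -0.0027 to 0.0087 leaving out single arrays. That of proteases was 0.035 without the probe sets of lowest variance and 0.0095 to 0.026 leaving out single arrays. Ligases minus proteases was -0.028 without those probe sets, -0.022 with the mean per gene and -0.023 to -0.0073 leaving out single arrays.

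Of 1336 values of named genes 24 changed sign, all of them of Usp42 or of genes near 0. Usp42 was 0.17 with 1 probe set per gene and 0.081 with the mean. Nedd4l was 0.010 with array weights, 0.0071 with the spike-in, 0.0087 with the oligodendrocyte and 0.0046 with the RNA integrity covariate, 0.034 without sucrose arrays 1 and 5, and -0.027 to 0.026 leaving out single arrays. Rnf25 was -0.0013 with quantile normalization, -0.0010 with the spike-in and -0.0028 with the oligodendrocyte covariate, and -0.020 to 0.025 leaving out single arrays. Rnf2 was -0.0053 with 1 probe set per gene and -0.0069 to 0.034 leaving out single arrays. For Rnf8 single arrays gave -0.013 to 0.040 and for Rnf112 -0.044 to 0.0077. The cause was not tested.

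With the replicate number as a block 22 members were higher and 1 lower. Same-numbered arrays correlated at -0.15 to 0.19, and the labels do not say whether the numbers pair the arrays. Ratios allow no filter on dim probe sets. The covariates for oligodendrocyte markers and RNA integrity and the loss of sucrose arrays 1 and 5 were chosen after seeing the data.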
